A study of Mus musculus with 3 samples.

Results

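The genes described here encode the SR proteins, the heterogeneous nuclear ribonucleoproteins (hnRNPs) and 5 related splicing factors of the mouse. They were chosen by name: every gene whose symbol begins with Srsf and a number or with Hnrnp, together with Tra2a, Tra2b, U2af1, U2af2, Sf3b1, Ptbp1 and Ptbp3, provided that it has a protein-coding transcript. This gave 38 of the 55536 annotated genes: 13 SR genes (11 Srsf and 2 Tra2), 20 Hnrnp genes, 2 Ptbp genes and 3 genes for recognition of the 3′ splice site. Their 351 annotated isoforms, of 141862 with values, fall into 161 protein-coding, 99 retained-intron, 49 nonsense-mediated-decay and 42 other processed transcripts. The rule itself uses no measured value, but it was set with earlier results of these data known. Hnrnpa1l2-ps and Hnrnpa1l2-ps2 matched by symbol but are processed pseudogenes with no protein-coding transcript, and were left out.

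The RNA came from a single group of 3 biological replicates: the chromatin fraction of macrophages grown from bone marrow of C57BL/6J mice and stimulated for 90 minutes with 100 ng/ml lipid A, the part of bacterial lipopolysaccharide that Toll-like receptor 4 senses. Total RNA was sequenced after ribosomal RNA depletion, from 1 µg of RNA in replicate 1, 250 ng in replicate 2 and 500 ng in replicate 3. The libraries share 1 donor label, sex and age were not collected, and no genotype beyond the strain is given, so a p-value here sets a difference against the variation of 3 libraries from 1 labelled source, part of which may be technical. Unstimulated cells were not analysed here: every value is a level after stimulation, not a response to it, and RNA amount and replicate cannot be told apart. Fewer cells with a transcript and less of it per cell cannot be told apart in such bulk samples either.

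SR proteins join RNA recognition motifs to a tail rich in arginine and serine. They bind exonic enhancers and help the U1 and U2 particles to find splice sites. hnRNPs coat nascent pre-mRNA and often hold exons back. U2AF and the SF3B complex read the polypyrimidine tract, the AG and the branch point at the 3′ end of an intron. Many genes of both families limit their own output through a "poison" exon, an alternative exon whose in-frame stop codon sends the mature mRNA to nonsense-mediated decay, or through introns that stay in the transcript and keep it in the nucleus. Chromatin-fraction RNA holds transcripts that are still being made and spliced, so reads of an intron awaiting removal and reads of an isoform that keeps it cannot be told apart in these tables.

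The annotated stop exons are shown because they tell some of the nonsense-mediated-decay isoforms below from the protein-coding ones. Of 49 nonsense-mediated-decay isoforms, 17 in 11 genes carry an exon that holds the stop and is absent from the protein-coding isoforms. Hnrnpa1, Hnrnpu and Hnrnpd have none. There are 14 distinct exons, 10 ending their reading frame with TGA, 4 with TAG and 0 with TAA. The coding stretch of 6 of them, from the exon's start to the stop codon in capitals, reads as follows on the transcribed strand (GENCODE M21 transcripts, mm10).
Srsf3-201: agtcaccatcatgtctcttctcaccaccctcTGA
Srsf7-203: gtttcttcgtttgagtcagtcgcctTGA
Tra2a-202: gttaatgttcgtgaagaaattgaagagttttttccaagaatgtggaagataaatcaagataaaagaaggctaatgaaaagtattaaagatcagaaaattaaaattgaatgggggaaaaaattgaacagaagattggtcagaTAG
Tra2b-206: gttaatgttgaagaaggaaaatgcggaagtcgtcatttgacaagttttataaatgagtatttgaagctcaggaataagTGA
Hnrnpl-213: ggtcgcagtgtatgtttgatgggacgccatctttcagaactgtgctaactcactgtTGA
Hnrnpll-203: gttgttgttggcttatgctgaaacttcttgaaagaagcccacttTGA
The exons of the paralogs Tra2a and Tra2b share their first 9 bases. The annotation's transcript support level, where 1 is the strongest and 5 the weakest, is 1 for Srsf3-201, Tra2a-202 and Tra2b-206. That level is 5 for Hnrnpl-213 and Hnrnpll-203 and is not given for Srsf7-203. In Srsf3 the exon spans chr17:29039454-29039909 (plus strand, 456 bases, exon 4 of 7) and in Srsf7 chr17:80204622-80205081 (minus strand, 460 bases, exon 4 of 9). The Tra2a exon lies at chr6:49252803-49253108 (minus strand, exon 2 of 9), the Tra2b exon at chr16:22258986-22259261 (minus strand, exon 2 of 10), the Hnrnpl exon at chr7:28817335-28817404 (plus strand, exon 6 of 13) and the Hnrnpll exon at chr17:80044940-80045022 (minus strand, exon 7 of 14).

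The retained introns are shown for the same reason. Of 99 retained-intron isoforms, 35 contain at least 1 whole intron that a protein-coding isoform of the gene removes, whether or not it lies within the coding sequence. There are 46 such introns in 20 genes, 21 to 2375 bases long with a median of 352 bases, and 45 of the 46 begin with GT and end with AG. Each line gives 10 exon bases and the start of the intron with GT in capitals, or the end of the intron with AG in capitals and 10 exon bases.
Srsf3-204 donor: ctcggcgcagGTacttgagagagcaccttt
Srsf3-204 acceptor: tttactgtttctgcttctAGatccccaaga
Srsf7-207 donor: gaagaagcagGTatttaattaatgaaggaa
Srsf7-207 acceptor: ttttctaacttaaaaaatAGgtcacgatct
Hnrnpll-202 donor: ttaatgtttgGTaattacttgtcctaagtt
Hnrnpll-202 acceptor: ttttcttttctaatcttcAGtgtgtctaaa
These introns lie at chr17:29038625-29040774 (Srsf3, 2150 bases), chr17:80204388-80205261 (Srsf7, 874 bases) and chr17:80034248-80035330 (Hnrnpll, 1083 bases). The Srsf3 and Srsf7 introns each contain the stop exon printed above. In all, 8 of the 14 stop exons lie whole inside an exon of a retained-intron isoform of the same gene, among them those of Srsf3, Srsf7, Hnrnpl and Tra2b but not those of Tra2a and Hnrnpll, so the same bases are counted toward both classes according to how the quantifier divides reads.

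The libraries differed in ways that touch the values below. Expected counts summed to 11277198, 24965749 and 19794886 in replicates 1 to 3, with protein-coding genes holding 68.4%, 40.2% and 50.3% and entries of the ribosomal RNA locus 9.3%, 50.8% and 38.3%. The 10 macrophage markers all passed the count filter, with 1170, 643 and 825 TPM (the abundance of a transcript corrected for its length) in sum, while 37 markers of 7 other cell types summed to 6.28, 6.06 and 6.71 TPM, 31 of them below 10 mean counts and 12 at 0. The members took 1.27%, 1.09% and 1.2% of protein-coding counts.

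Most of these genes were more abundant than the typical expressed protein-coding gene of the fraction. A level is the log2(TPM + 1) of a gene minus the same for the median protein-coding gene with at least 10 mean counts (5.5, 3.7 and 4.93 TPM in replicates 1 to 3), so the reference differs between libraries as the genes do, and fold differences of low genes are understated. Of the 38 genes, 37 passed the count filter, and 33 of these were called above a bound of 1 log2 unit, with 0 called below it (limma's treat, Benjamini-Hochberg adjusted over 13434 genes at 0.05; 33 and 0 also at an unadjusted p under 0.05). The same test called 21.3% of all tested genes above the bound and 21.3% below, and 24.1% of the protein-coding ones above and 19.5% below. The median tested member lay 3.18 ± 0.17 log2 units (SD over the 3 libraries) above the reference, and 19 of the 37 ranked in the top 10% of tested protein-coding genes in every library. The count was 31 to 33 when each replicate in turn was left out and 24 of 35 where genes needed at least 100 mean counts, which raises the reference. In those settings the test called 18.2% to 22.7% and 17.8% of all genes above.

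**Figure D1:**
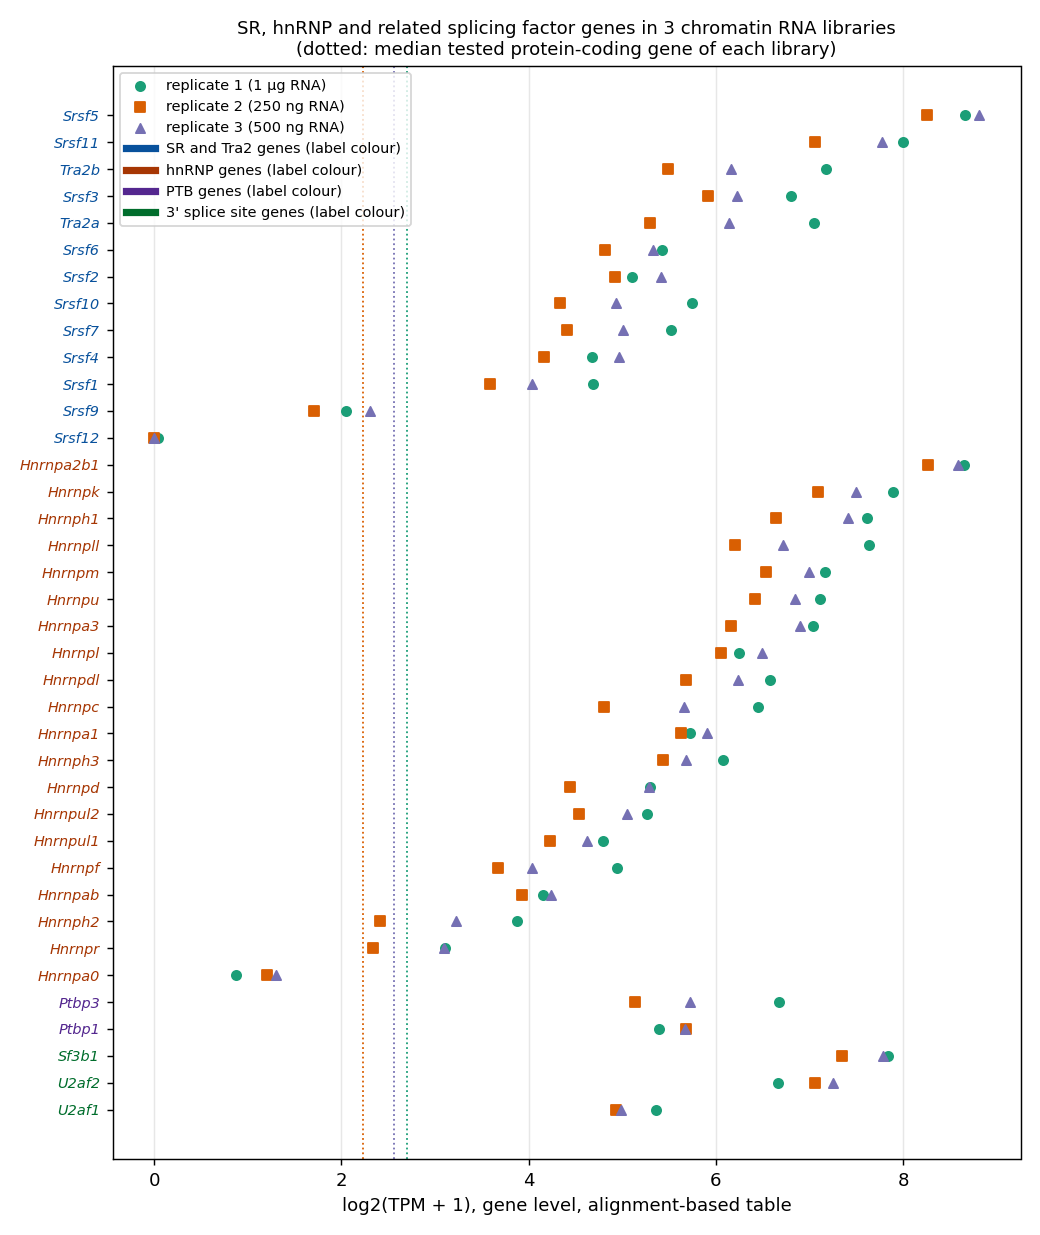
Gene-level log2(TPM + 1) of all 38 genes in each of the 3 libraries, grouped by family and ordered by mean TPM, with the median tested protein-coding gene of each library as a dotted line. Srsf5 and Hnrnpa2b1 lie furthest to the right in every library, and Srsf9, Hnrnpa0 and Srsf12 lie left of the dotted line of their own library.

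Among the SR genes, 11 of 12 tested were called above the bound. Srsf5, whose protein binds exonic enhancers, was the most abundant of all members, with 403, 305 and 448 TPM in replicates 1 to 3 and a level of 6.08 ± 0.15 (SD, n = 3 here and below; limma adjusted p = 5.46e-06). Srsf11 had 255, 132 and 218 TPM (level 5.11 ± 0.25). Replicate 2 was the lowest in both, as it was for the reference. Tra2b and Tra2a, which promote inclusion of exons with purine-rich enhancers, had 143, 44.0 and 70.7 TPM and 131, 38.4 and 69.5 TPM; in both, replicate 1 stood well above the other two. Their levels were 3.78 ± 0.63 and 3.66 ± 0.65.

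The remaining Srsf genes covered a wide range. Srsf3, which also helps export spliced mRNA, had 111, 59.6 and 73.9 TPM (level 3.82 ± 0.25). Srsf6 had 42.0, 27.2 and 39.1 TPM (2.69 ± 0.09), and Srsf2, known as SC35 from nuclear speckles, 33.3, 29.3 and 41.5 TPM (2.64 ± 0.23). Srsf10, which can act as a repressor, had 52.5, 19.2 and 29.6 TPM (2.51 ± 0.48). Replicate 2 was the lowest library in each of them. Srsf7, an export adaptor like Srsf3, had 44.9, 20.2 and 31.1 TPM (2.48 ± 0.32), and Srsf4 24.6, 17.0 and 30.1 TPM (2.10 ± 0.25). Srsf1, the founding member of the family, had 24.8, 11.0 and 15.4 TPM, and its level of 1.60 ± 0.34 was called above the bound (adjusted p = 0.0229; without replicate 3 the level was 1.67 and the call was lost). Srsf9 had 3.15, 2.28 and 3.95 TPM and a level of -0.48 ± 0.20, which was not called. Srsf12 had 1, 0 and 0 expected counts in the alignment-based table, under the limit of 3 counts that a count of 0 allows. The alignment-free table gave it 1.39, 0.202 and 0.429 TPM, so the quantifications differ on whether it was detected.

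Of the 20 Hnrnp genes, 17 were called above the bound. Hnrnpa2b1, which encodes an hnRNP of the A/B group that also sorts and exports RNA, had 399, 306 and 384 TPM in replicates 1 to 3 (level 6.00 ± 0.05, adjusted p = 5.36e-06). Hnrnpk, a binder of C-rich RNA, had 236, 135 and 179 TPM (4.99 ± 0.17), and Hnrnph1, a binder of G runs, 194, 98.5 and 169 TPM (4.72 ± 0.27). Hnrnpll, known for skipping of Ptprc (CD45) exons in activated T cells, had 198, 73.0 and 104 TPM (4.35 ± 0.51). In each of these genes replicate 1 was highest and replicate 2 lowest.

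Hnrnpm, reported to hold back splicing of some inflammatory transcripts in macrophages, had 143, 91.8 and 126 TPM (4.40 ± 0.09). Hnrnpu, a scaffold protein of the nucleus, had 137, 84.4 and 114 TPM (4.29 ± 0.11), and the A/B-type gene Hnrnpa3 averaged 106 TPM (4.20 ± 0.23). Hnrnpl, a binder of CA repeats, had 75.2, 65.7 and 88.8 TPM (3.77 ± 0.19), and Hnrnpdl 94.2, 50.1 and 74.5 TPM (3.66 ± 0.22). Hnrnpc had 86.3, 26.9 and 49.6 TPM (3.14 ± 0.59), with replicate 1 far above the other two. Hnrnpa1 had 51.9, 48.4 and 59.1 TPM (3.25 ± 0.20) and Hnrnph3 66.3, 42.3 and 50.3 TPM (3.23 ± 0.13).

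A further set of Hnrnp genes was called above the bound at lower levels. Hnrnpd, which also binds AU-rich elements, had 38.4, 20.7 and 38.1 TPM (2.51 ± 0.27). Hnrnpul2 had 37.3, 22.2 and 32.1 TPM (2.45 ± 0.13) and Hnrnpul1 26.7, 17.7 and 23.6 TPM (2.05 ± 0.05), both relatives of Hnrnpu. Hnrnpf, a G-run binder like Hnrnph1, had 29.8, 11.8 and 15.4 TPM (1.72 ± 0.45, adjusted p = 0.0187). Hnrnpab, an A/B-type gene, had 16.8, 14.3 and 17.9 TPM (1.61 ± 0.13, adjusted p = 0.0118); its call was lost without replicate 2, at 1.56, and without replicate 3, at 1.58.

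At the low end, Hnrnph2 and Hnrnpr had 13.7, 4.31 and 8.37 TPM and 7.64, 4.07 and 7.58 TPM, and levels of 0.67 ± 0.50 and 0.35 ± 0.22 that were not called. Hnrnpa0, whose protein binds AU-rich elements of cytokine mRNAs, had 0.84, 1.30 and 1.47 TPM. Its level was -1.37 ± 0.41 (adjusted p = 0.12; it was called below in 4 of the 9 alternatives that tested it, among them the alignment-free table at -2.03); it was the lowest tested member, and its highest library stayed below the lowest library of every other tested member. The family thus covered levels from -1.37 to 6.00.

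The PTB genes and the 3 genes for the 3′ splice site were all called above the bound. Ptbp1, which represses exons through pyrimidine-rich tracts, had 40.9, 50.4 and 50 TPM (3.08 ± 0.38), and its paralog Ptbp3 had 101.24, 34.26 and 51.9 TPM (3.35 ± 0.56). Replicate 1 was lowest for Ptbp1 and highest for Ptbp3. Sf3b1, the U2 particle protein that holds the branch point, had 227, 161 and 220 TPM (5.15 ± 0.06). U2af2, which reads the polypyrimidine tract, had 100.71, 132.24 and 151.4 TPM (4.49 ± 0.46), against 40.1, 29.6 and 30.7 TPM for its partner U2af1, which reads the AG (2.59 ± 0.15). Within each library U2af2 was above U2af1.

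Some members overlap other annotated genes, and whether the counting used strand is not given in the sources used here, so their reads may be shared. Hnrnpab averaged 16.3 TPM and Phykpl on the opposite strand 17.0 TPM. Srsf4 averaged 23.9 TPM and the same-strand entry A930004J17Rik 17.8 TPM, but that entry held more expected counts, 1373.3 against 933.7 for Srsf4. Tra2a averaged 79.7 TPM and the opposite-strand entry Gm43980 38.0 TPM. Hnrnpf averaged 19.0 TPM, and the opposite-strand entries 4933440N22Rik and Gm43863 averaged 10.3 and 9.55 TPM. On the strand opposite Ptbp3 (62.5 TPM) and Hnrnpll (125 TPM), the pseudogenes Gm12529 and AC122253.3 averaged 20.6 and 20.1 TPM. These pseudogenes held few expected counts, 23.7 against 2660.0 for Ptbp3 and 111.7 against 6887.3 for Hnrnpll. Rufy2, opposite Hnrnph3, averaged 8.74 TPM but 529.7 expected counts, against 53.0 TPM and 777.7 counts for Hnrnph3. Members also have close paralogs (Hnrnph1 and Hnrnph2, Tra2a and Tra2b, Srsf4 and Srsf6, Srsf3 and Srsf7), and how reads matching several genes were divided is not stated. By position, Hnrnpd and Hnrnpdl on chromosome 5 are 54.6 kb apart and Hnrnpll and Srsf7 on chromosome 17 are 137.7 kb apart, each pair with 1 protein-coding gene lying between its members.

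Across the wider splicing machinery, 8 lists of related genes were measured in the same test, which called 21.3% of all genes above and 21.3% below. Of 23 SR-related genes of splicing and nuclear speckles, 20 were called above the bound and 0 below, with a median level of 3.41; Rbm39, a U2AF-like factor (526 TPM, level 6.52 ± 0.10), and Srrm2, a scaffold of nuclear speckles (373 TPM, 6.03 ± 0.10), led them, and Rsrc1 (1.03 ± 0.16) and Sap18 (0.11 ± 0.53) were the lowest. Of 11 genes in a list made up mostly of kinases and import factors of SR proteins, 8 were above and 1 below (median 2.79). The CDC-like kinase gene Clk1 reached 4.05 ± 0.26 and Prpf4b 3.28 ± 0.23. Topors, which is neither a kinase nor an import factor, measured 0.23 ± 0.42. Srpk3, a kinase known from muscle, measured -1.91 ± 0.07 (limma adjusted p = 0.00208). Of 28 hnRNP relatives without an Hnrnp symbol, 17 were above and 0 below (median 2.12); Ewsr1 measured 5.08 ± 0.13, and Pcbp4 (-0.33 ± 0.28) and Rbmxl1 (-0.38 ± 0.36) were the lowest.

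Of 22 tested genes of the U1 and U2 particles and branch point factors, 13 were called above and 0 below, with a median of 1.89 and with the U1 proteins Luc7l2 (5.51 ± 0.40) and Snrnp70 (5.05 ± 0.26) highest and Sf3b4 (-0.53 ± 0.32) and Phf5a (-1.06 ± 0.18) lowest. Of 17 factors of nonsense-mediated decay and the exon junction complex, 6 were above and 0 below (median 0.99), led by the kinase gene Smg1 (4.64 ± 0.05) and Smg9 (2.59 ± 0.40), with Smg8 (-0.59 ± 0.10) and Magoh (-1.17 ± 0.12) at the foot. Of 20 genes of the tri-snRNP and Prp19 complexes, 3 were above and 1 below (median 0.77): Ddx23 (2.59 ± 0.42) and Sart1 (2.46 ± 0.67) were highest, and Ctnnbl1 (-0.75 ± 0.55) and Txnl4a (-1.62 ± 0.11, the member called below) lowest. Of 13 tested Sm and LSm ring proteins, 0 were called on either side (median -0.40), with Snrpd1 (0.20 ± 0.50) and Snrpd3 (0.15 ± 0.15) highest and Snrpg (-1.34 ± 0.47) and Lsm5 (-1.53 ± 0.44) lowest. Only 2 of 19 splicing regulators known from neurons, muscle or epithelium passed the count filter, Celf3 (-1.33 ± 0.41) and Esrp2 (-2.14 ± 0.25, called below). These medians stand beside -0.21 for all 13434 tested genes, and differences between the lists were not tested. The counts depend on the filter that sets the reference. With at least 100 mean counts the test called 17.8% of all genes above. There the counts were 14 of 23 SR-related genes, 6 of 10 on the kinase and import factor list and 11 of 25 hnRNP relatives. They were also 7 of 19 U1 and U2 genes, 1 of 15 decay factors and 0 of 17 tri-snRNP genes. With no minimum count (21.9% called above) they were 22 of 23, 9 of 11, 22 of 31, 17 of 23, 12 of 17 and 12 of 20 in the same order. Of Sm and LSm genes 0 were called above in any setting. Up to 2 of 13 were called below, with a pseudocount of 0.1 or with TMM-scaled counts per kb. Those settings called 27.1% and 27.3% of all genes below. Of tissue-restricted regulators 10 of 12 were called below with no minimum count, where the test called 24.6% of all genes below. Most of those 12 had under 10 mean counts, and log2(TPM + 1) cannot fall below 0.

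**Figure D2:**
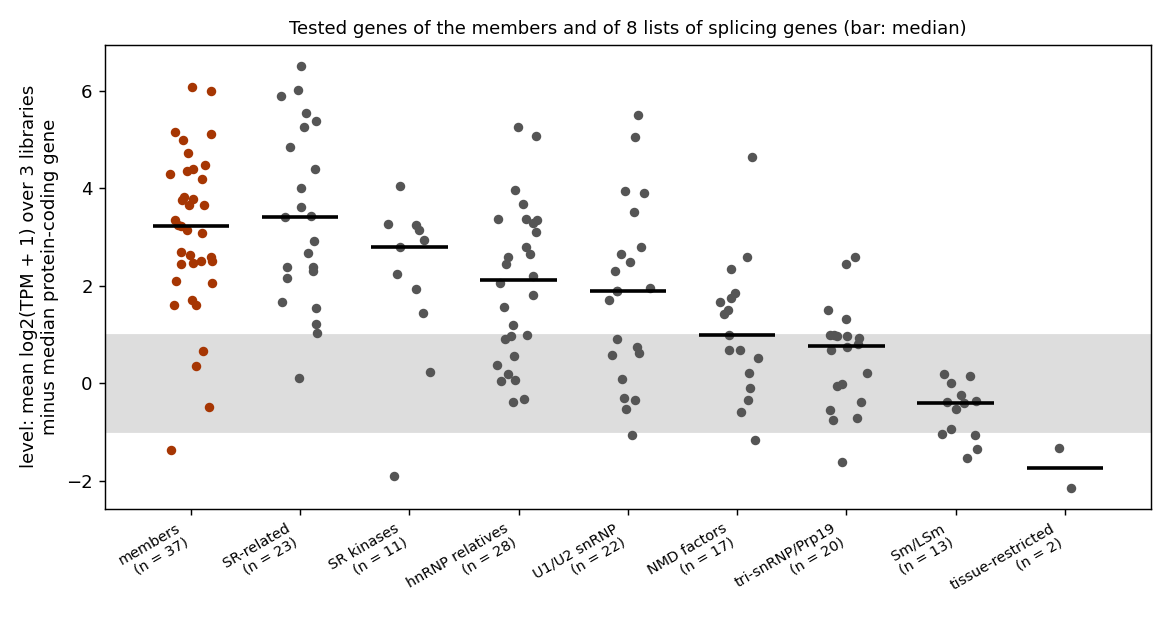
Level of each tested gene (mean over 3 libraries of log2(TPM + 1) minus the median protein-coding gene) for the members and 8 lists of splicing genes, with the median as a bar and the range within 1 log2 unit of the reference in grey. Most members and SR-related genes lie above the grey range, and most Sm and LSm genes lie inside it.

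Much of this RNA was assigned to isoforms without a full coding sequence. Over all members, retained-intron isoforms took 55.5%, 45.7% and 44.1% of isoform TPM in replicates 1 to 3, protein-coding isoforms 26.6%, 31.8% and 33.2%, other processed transcripts 12.2%, 12.7% and 13.9%, and nonsense-mediated-decay isoforms 5.64%, 9.76% and 8.80%. Over the 8704 protein-coding genes with at least 1 TPM, the shares were 43.8%, 34.3% and 34.1% retained intron, 43.2%, 53.1% and 53.2% protein coding, and 3.53%, 4.31% and 4.34% nonsense-mediated decay. Replicate 1 had the largest retained-intron share and the smallest nonsense-mediated-decay share in both sets; the part of its RNA amount or ribosomal RNA share in this was not tested. The members' retained-intron share was smaller by expected counts (50.6%, 40.7% and 39.8%), which are not per length.

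The most abundant isoform was a retained-intron isoform for 18 of the 37 tested members, a protein-coding isoform for 13, a nonsense-mediated-decay isoform for 3 and another processed transcript for 3. In 24 of the 37, protein-coding isoforms held less than 50% of the gene's TPM on average. Neither of these counts was made over all genes, so neither is shown to be particular to the members. Both rest on TPM, which is per length. For Ptbp3 the top isoform, Ptbp3-206 of 447 bases, had 145.37, 64.1 and 87.04 expected counts in replicates 1 to 3. The protein-coding Ptbp3-201 had 2417.38, 1091.41 and 1451.82. By expected counts the retained-intron share was 4.04% in place of 41.2% for Ptbp3, but 74% in place of 42.6% for Srsf5. The shares that follow are of TPM unless said otherwise. The retained-intron share was highest for Srsf11 (82.3% ± 9.85), U2af1 (82.2% ± 3.64), Srsf3 (80.1% ± 2.37), Srsf7 (79.0% ± 5.17), Hnrnpl (77.8% ± 9.81) and Hnrnpll (75.2% ± 9.96; SD, n = 3). Hnrnph1 and Srsf10 have no annotated retained-intron isoform, and processed transcripts with no annotated reading frame held 90.1% ± 5.37 and 66.7% ± 4.78 of their TPM. By expected counts these held 88.4% ± 6.15 for Hnrnph1 but only 25.8% ± 4.12 for Srsf10, where protein-coding isoforms held 74.2% ± 4.12. Hnrnpab, Hnrnpa0, Hnrnpf and Hnrnph2 have protein-coding isoforms alone among these classes.

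**Figure D3:**
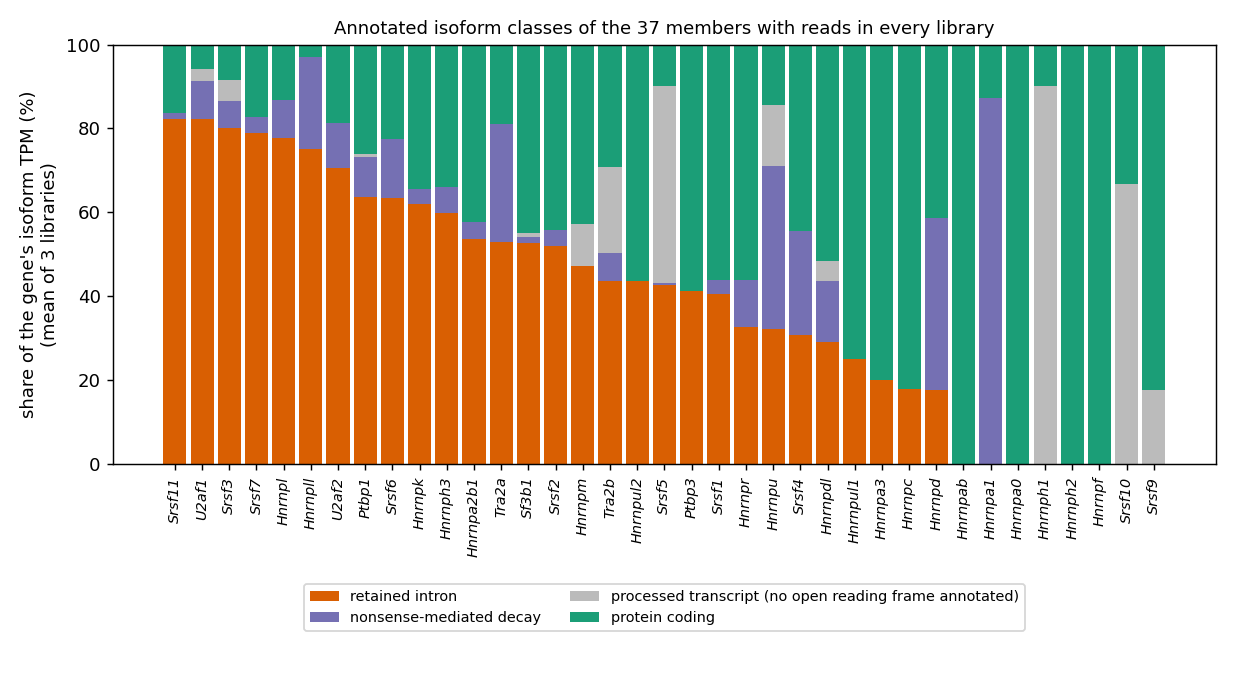
Share of each gene's isoform TPM in 4 annotated classes, as the mean of 3 libraries, ordered by the retained-intron share. Srsf11, U2af1, Srsf3 and Srsf7 stand at the left, with mean retained-intron shares of 79.0% to 82.3%, and 8 genes at the right have none.

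Retained-intron RNA exceeded protein-coding RNA by more than the bound in Hnrnpll, Srsf3, U2af1, Hnrnpl, Srsf7 and Srsf5, and fell short of it by more than the bound in Hnrnpc. The ratio was log2 of summed retained-intron over protein-coding isoform TPM, each plus 0.1, tested against 1 log2 unit over 5752 genes with at least 1 TPM and both classes. Of 29 members tested, 6 were above and 1 below, where the test called 7.49% of all genes above and 7.65% below. The median member stood at 0.61 ± 0.40 (SD over libraries), beside 0.08 for all genes. In expected counts the count was 3 above and 8 below and the median -0.20, where the same test called 7.15% of all genes above and 33.3% below. The direction of the member median thus depends on whether isoforms are compared per length.

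Hnrnpll had 171, 50.4 and 72.8 TPM in retained-intron isoforms and 5.39, 2.07 and 3.36 TPM in protein-coding ones in replicates 1 to 3, a ratio of 4.63 ± 0.30 (limma adjusted p = 0.00171). Its protein-coding isoforms held only 2.93% ± 0.26 of the gene's TPM. The intron printed above is in Hnrnpll-202, which had 35.49, 6.67 and 12.66 TPM in replicates 1 to 3. The retained-intron isoforms Hnrnpll-207 (63.39, 17.55 and 25.48 TPM) and Hnrnpll-204 (52.04, 16.11 and 21.32 TPM) were more abundant. Neither contains a whole intron that a protein-coding isoform removes. Srsf3 had 86.4, 47.4 and 61.1 TPM retained intron and 15.0, 3.11 and 4.98 TPM protein coding (3.33 ± 0.72, adjusted p = 0.0079), with the 2 classes far apart in every library. These were the 2 calls that held under all 9 alternatives, including each replicate left out in turn, the alignment-free table and expected counts.

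The other 4 calls above were less stable. U2af1 had 34.6, 23.6 and 24.8 TPM retained intron and 0, 1.44 and 3.90 TPM protein coding; its ratio of 5.01 ± 3.04 rests on the pseudocount in replicate 1, where the protein-coding isoforms are listed at 0 (adjusted p = 0.0345; lost in expected counts). Hnrnpl had 66.8, 46.2 and 66.0 TPM against 5.23, 10.7 and 14.3 TPM (2.65 ± 0.87, adjusted p = 0.0299; lost in the alignment-free table and in expected counts). Srsf7 had 38.1, 15.5 and 23.5 TPM against 5.11, 4.21 and 6.11 TPM (2.22 ± 0.57, adjusted p = 0.0465), and Srsf5 191, 124 and 179 TPM against 53.1, 21.1 and 41.3 TPM (2.17 ± 0.36, adjusted p = 0.041). In every library of these 4 genes the retained-intron sum was the larger. The calls of Srsf7 and Srsf5 were lost without replicate 2, at 2.40 and 1.98, and without replicate 3, at 2.36 and 2.20. The Srsf7 call was also lost in the alignment-free table and in expected counts, where its ratio was 1.74. With no minimum TPM only the calls of Hnrnpll and Srsf3 held.

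In the other direction Hnrnpc, whose protein binds U tracts, had 16.3, 5.79 and 6.55 TPM retained intron and 70.0, 21.2 and 43.1 TPM protein coding (-2.22 ± 0.44, adjusted p = 0.0398). That call was lost without any 1 replicate, at ratios of -2.28, -2.40 and -1.97 without replicates 1, 2 and 3. Srsf11 had a larger retained-intron share than any other member, but its 238, 104 and 163 TPM against 10.9, 27.3 and 52.6 TPM gave 2.67 ± 1.54 and adjusted p = 0.0792, with replicate 1 far from the other two. It was called above without replicate 2, at 3.03, and without replicate 3, at 3.18, and Tra2a without replicate 3, at 3.04, while Hnrnpul1 was called below without replicate 1, at -2.14.

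**Figure D4:**
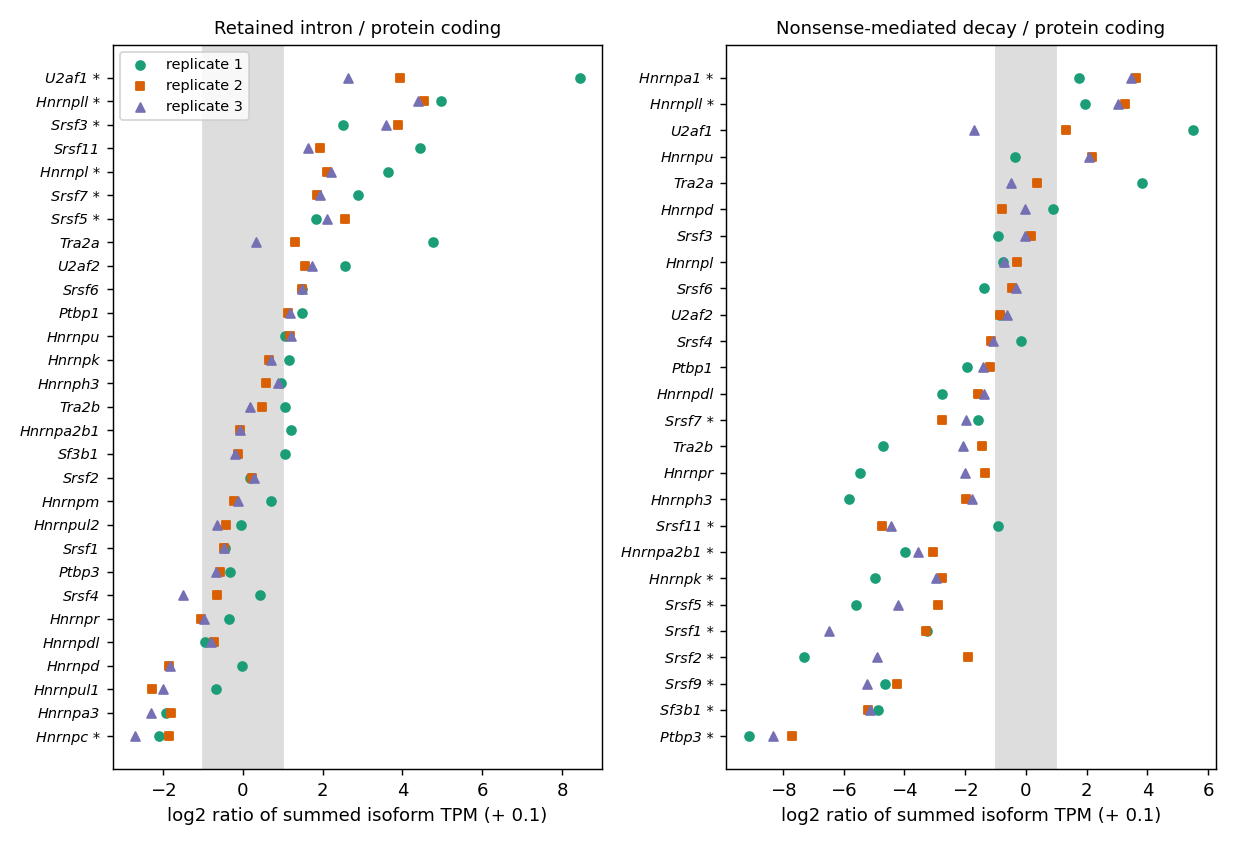
Log2 ratio of summed retained-intron (left) and nonsense-mediated-decay (right) isoform TPM to protein-coding isoform TPM, each plus 0.1, per library, with the tested bound in grey and called genes marked by an asterisk. Hnrnpll and Srsf3 lie right of the grey range in every library on the left, and Hnrnpa1 and Hnrnpll on the right; U2af1 and Tra2a spread widely.

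Nonsense-mediated-decay isoforms exceeded the protein-coding ones by more than the bound in 2 members and fell short by more than the bound in 10. Of 26 members tested over 2821 genes, 2 were above the bound and 10 below, where the same test called 1.35% of all genes above and 52.5% below; the median member stood at -1.64 ± 0.21, beside -2.55 for all genes. Hnrnpa1, an exon repressor, had 40.0, 44.8 and 54.2 TPM in nonsense-mediated-decay isoforms and 11.8, 3.53 and 4.88 TPM in protein-coding ones (2.94 ± 1.04, adjusted p = 0.02). Hnrnpll had 21, 20.5 and 28.2 TPM against 5.39, 2.07 and 3.36 TPM (2.74 ± 0.70, adjusted p = 0.0155), all from Hnrnpll-203, whose stop exon is printed above. In both genes the nonsense-mediated-decay sum was larger in every library, but both calls were lost without replicate 2 and without replicate 3, at 2.60 and 2.69 for Hnrnpa1 and 2.49 and 2.60 for Hnrnpll, and replicate 1 had the lowest ratio in both.

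The Hnrnpa1 sum comes from 2 isoforms. Hnrnpa1-203 had 11.5, 34.2 and 41.6 TPM in replicates 1 to 3 and Hnrnpa1-204 had 28.6, 10.7 and 12.6 TPM. Replicate 1 was the lowest library for Hnrnpa1-203 and the highest for Hnrnpa1-204. After Hnrnpa1 (87.2% ± 8.70), the nonsense-mediated-decay share was highest for Hnrnpd (41.0% ± 8.72), Hnrnpu (39.0% ± 20.0), Tra2a (28.2% ± 4.8), Srsf4 (24.8% ± 3.20) and Hnrnpll (21.9% ± 9.80). For Hnrnpu the per-library shares were 15.9%, 51.6% and 49.4%, with replicate 1 again apart; without that replicate the Hnrnpu ratio was called above, at 2.12.

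The 10 members below the bound were Srsf1, Srsf2, Srsf5, Srsf7, Srsf9, Srsf11, Hnrnpa2b1, Hnrnpk, Ptbp3 and Sf3b1. Sf3b1 had 2.36, 2.12 and 3.20 TPM against 71.7, 82.2 and 115 TPM (-5.07 ± 0.18, adjusted p = 0.00127), and Hnrnpa2b1 7.46, 17.7 and 16.1 TPM against 119, 148 and 188 TPM (-3.52 ± 0.46). Hnrnpk had 2.18, 7.29 and 8.16 TPM against 72.0, 49.6 and 64.5 TPM (-3.57 ± 1.23), and Srsf5 1.01, 2.76 and 2.14 TPM against 53.1, 21.1 and 41.3 TPM (-4.23 ± 1.34). Srsf1 had 1.32, 0.53 and 0 TPM against 13.6, 6.13 and 8.94 TPM (-4.36 ± 1.85), and Srsf2 0, 3.15 and 0.52 TPM against 15.6, 12.0 and 18.6 TPM (-4.70 ± 2.70), so that both ratios depend on the pseudocount where an isoform is listed at 0. The nonsense-mediated-decay isoforms of Ptbp3 and Srsf9 are listed at 0 in all 3 libraries, beside protein-coding sums of 56.0, 20.5 and 31.8 TPM and 2.38, 1.80 and 3.64 TPM, and give no fold. The calls of Srsf11 and Srsf7 were lost without replicate 2, at -2.68 and -1.77, and without replicate 3, at -2.84 and -2.17. In the alignment-free table the Srsf11 ratio was -1.0 (adjusted p = 0.71), and a nonsense-mediated-decay isoform of Srsf11 had 38.48, 6.5 and 17.1 TPM there, against 5.47, 0 and 0 TPM in the alignment-based table. The Srsf2 call was lost without replicate 1, at -3.40, without replicate 3, at -4.59, and in expected counts. With no minimum TPM the calls of Srsf11, Srsf7 and Srsf2 were all lost, and with a pseudocount of 1 that of Srsf7 was lost. Tra2b was called below without replicate 2, at -3.38.

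The stop exons printed above belong to isoforms of low to moderate level. Tra2a-202 had 43.9, 10.4 and 16.7 TPM in replicates 1 to 3 and its paralog's Tra2b-206 had 0.93, 4.8 and 4.77 TPM, so replicate 1 was the highest for the Tra2a exon and the lowest for the Tra2b exon. Srsf3-201 had 7.97, 3.53 and 4.85 TPM, Srsf7-203 1.64, 0.54 and 1.49 TPM and Hnrnpl-213 3.09, 8.79 and 8.56 TPM. The alignment-free table gave Tra2a-202 82.2, 14.4 and 35.5 TPM and Srsf3-201 6.64, 1.20 and 3.09 TPM, with the libraries in the same order as above. The order differed for Hnrnpll-203, at 30.94, 15.72 and 27.5 TPM, and for Hnrnpl-213, at 3.4, 5.4 and 8.71 TPM. For Hnrnpll-203 replicate 1 was thus the highest library in the alignment-free table and replicate 3 in the alignment-based one.

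No member was called different at gene level between the 2 quantifications of each library. The difference was log2(TPM + 1) in the alignment-based table minus the same in the alignment-free table, each relative to its median protein-coding gene. Of 37 members 0 were called beyond 1 log2 unit in either direction (limma's treat over 13427 genes, which called 0.633% above and 1.9% below; 0 also at an unadjusted p under 0.05). The median member difference was 0.50 ± 0.08 (SD over libraries), beside 0.23 for all tested genes, and 30 of the 37 were positive. Hnrnpa3 had the largest positive difference, 1.16 ± 0.22, with 130, 70.6 and 118 TPM in the alignment-based and 137, 32.6 and 67.2 TPM in the alignment-free table, and Ptbp3 the largest negative, -0.52 ± 0.25.

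Replicates differed by a small amount for most of these genes, under TMM scaling. In log2 CPM with TMM factors, the median SD over the 3 libraries was 0.24 for the 37 members and 0.36 for 10530 protein-coding genes, and 10 members exceeded 0.36. No test was made of this difference, and the 2 sets of genes were not matched for abundance. Scaled by total counts alone the member median was 0.47. Without replicate 1 it was 0.11, without replicate 2 0.23 and without replicate 3 0.32. For these other settings no protein-coding median is given here to set beside the member median. Hnrnpu (SD 0.03), Hnrnpa1 (0.07) and Hnrnpk (0.09) differed least. Hnrnpa0 (0.71), Tra2a (0.60), U2af2 (0.60), Hnrnph2 (0.59) and Srsf10 (0.52) differed most.

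In the 5 genes with the largest SD replicate 1 was either the highest or the lowest library. It lay above the mean of replicates 2 and 3 by 1.00 log2 units for Tra2a, 0.89 for Hnrnph2, 0.83 for Tra2b, 0.82 for Srsf10, 0.68 for Ptbp3 and 0.67 for Hnrnpll. It differed by -1.22 for Hnrnpa0, -1.01 for U2af2, -0.79 for Ptbp1, -0.56 for Srsf2 and -0.55 for Hnrnpl. Both Tra2 paralogs were thus high and Ptbp1 and U2af2 low in the library made from the most RNA, which also had the smallest ribosomal RNA share; the part of either in these differences was not tested.

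**Figure D5:**
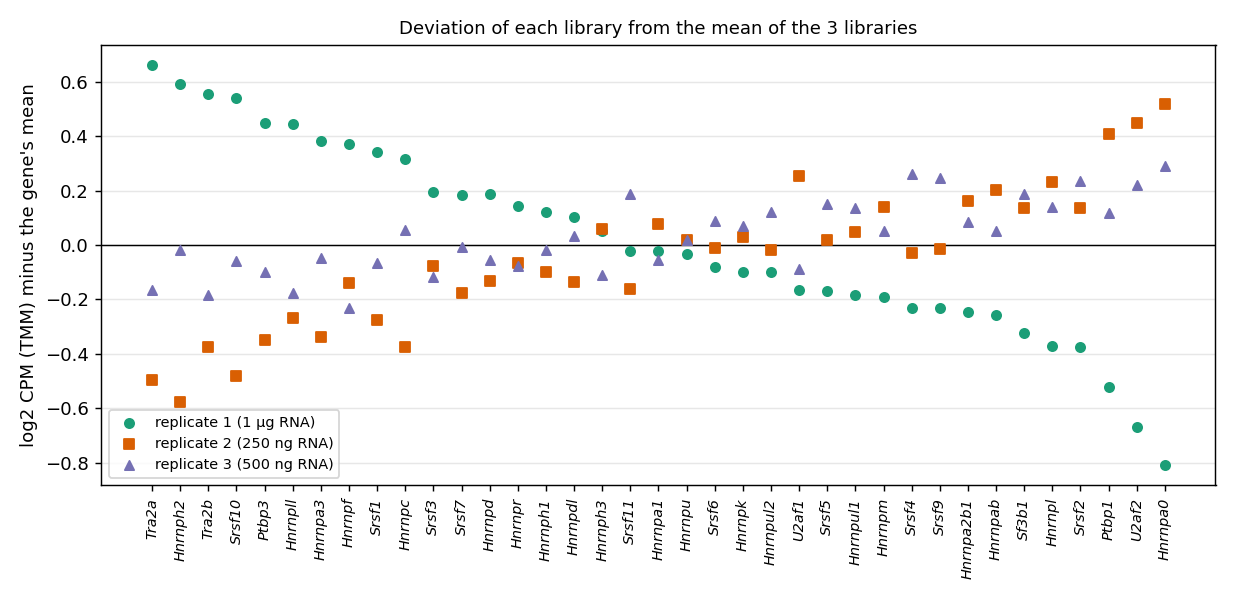
Log2 CPM (counts scaled to library size with TMM factors) of each tested member in each library minus the gene's mean over 3 libraries, ordered by the deviation of replicate 1. Replicate 1 is the highest library for Tra2a, Hnrnph2, Tra2b and Srsf10 at the left and the lowest for Ptbp1, U2af2 and Hnrnpa0 at the right.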

How the data were processed

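Chromatin-fraction total RNA of 3 replicates was analysed. The authors deposited, for each library, gene and isoform tables with expected counts (reads divided among transcripts by estimation, not scaled) and TPM, from an alignment-based quantification (which also holds posterior mean TPM) and from an alignment-free one, per the file headers; build mm10 and annotation GENCODE M21 are per the labels and file contents. No label or header used here names the aligner, versions, filters or strand setting. Count totals were 11277198, 24965749 and 19794886; 3 counts correspond to 0.266, 0.12 and 0.152 CPM, a limit that covers counting error only.

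Levels were log2(TPM + 1) minus the median protein-coding gene with at least 10 mean expected counts. Isoform ratios were log2 of class sums of TPM plus 0.1, for genes with at least 1 mean TPM. Each was tested with limma 3.58.1 (treat, bound of 1 log2 unit, intercept only, R 4.3.3) over all tested genes, with Benjamini-Hochberg adjustment at 0.05; the test was checked on simulated data. Spread was the SD of log2 CPM of expected counts (edgeR 4.0.16, TMM, prior count 2). With 1 group, no conditions were compared. Alternatives changed pseudocounts, minimum values, the table, the reference and the scaling, and left out each replicate.

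The members and lists were chosen with earlier results of these data known. Any member could be named; values per library are given for those called in a test, the 10 most and 3 least abundant, and the 6 highest retained-intron and nonsense-mediated-decay shares, and of each other list the 2 most and 2 least abundant tested genes, except 1 gene that is not reported here. Sequences came from the GENCODE M21 transcripts. Protein sequences were not used here.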

Additional observations from a re-analysis of the deposited data

How the results depend on the processing

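No paired analysis was possible because the series has 1 group. Where a result moved, the cause was not tested unless the setting itself shows it. Of the calls, 24 of 33 for level, 2 of 7 for retained-intron ratios and 7 of 12 for nonsense-mediated-decay ratios held under every alternative run for them. Leaving out each replicate gave 31 to 33 members above and 0 below for level, with medians of 3.09 to 3.24. It gave 5 to 6 above, 0 to 1 below and medians of 0.38 to 0.77 for retained introns. It gave 0 to 3 above, 7 to 9 below and medians of -1.76 to -1.58 for nonsense-mediated decay. It gave 0 calls and medians of 0.46 to 0.53 between quantifications, and a median SD of 0.11 to 0.32. In these settings the test called 18.2% to 22.7% of all genes above and 11.7% to 24.9% below for level. For retained introns it called 6.15% to 7.11% above and 5.95% to 11.1% below. For nonsense-mediated decay it called 0.674% to 1.45% above and 34% to 48% below. The level count below was 1 with a pseudocount of 0.1, posterior mean TPM, the alignment-free table or TMM-scaled CPM per kb (Hnrnpa0 in each), and 1 with no minimum count. These settings called 20.6% to 27.3% of all genes below. The median level was 3.41 with a pseudocount of 0.1, 4.05 with no minimum count, 2.23 with a minimum of 100 counts, 3.00 with posterior mean TPM, 2.78 in the alignment-free table, 3.39 against all tested genes and 3.46 with TMM. Retained-intron calls above were 2 with no minimum TPM and 3 in expected counts (3.25% and 7.15% of all genes). Those below were 2 with a pseudocount of 1, a minimum of 5 TPM, posterior mean TPM or the alignment-free table (4.59% to 9.63% of all genes). They were 0 with no minimum TPM (3.87%) and 8 in expected counts (33.3%), where the median was -0.20. The nonsense-mediated-decay median was -1.33 with a pseudocount of 1, -1.92 in the alignment-free table and -2.44 in expected counts. The median difference between quantifications was 0.58 with a pseudocount of 0.1, 0.58 with no minimum count, 0.42 with a minimum of 100 counts and 0.29 with posterior mean TPM. The median SD was 0.47 with total counts only.

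Single genes, most of them near 0, changed sign. For level these were Hnrnph2 (-0.40) and Hnrnpr (-0.72) at a minimum of 100 counts, Hnrnph2 in the alignment-free table (-0.20) and Srsf9 with no minimum count (0.47). For retained introns they were Hnrnpa2b1, Hnrnpm and Sf3b1 without replicate 1. Leaving out each replicate gave Hnrnpa2b1 -0.07 to 0.57, Hnrnpm -0.16 to 0.29 and Sf3b1 -0.15 to 0.47. In the alignment-free table they were Hnrnph3 (-0.19), Hnrnpm (-0.29), Srsf1 (0.35) and Srsf4 (1.08), and in expected counts Hnrnph3 (-0.20), Hnrnpk (-0.80), Hnrnpm (-0.61), Hnrnpu (-2.81, limma adjusted p = 0.00595) and Sf3b1 (-1.26). For nonsense-mediated decay they were Hnrnpd, Srsf3, Tra2a and U2af1 without replicate 1. Leaving out each replicate gave Hnrnpd -0.40 to 0.43, Srsf3 -0.47 to 0.07, Tra2a -0.05 to 2.10 and U2af1 -0.20 to 3.42. In the alignment-free table they were Hnrnpd (-0.93), Srsf4 (1.53) and U2af1 (-0.34), in expected counts Hnrnpd (-1.0) and Hnrnpu (-0.31), and with posterior mean TPM Hnrnpd (-0.02).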
